A study of Mus musculus with 8 samples.

Results

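The genes described here are 31 marker genes of astrocytes, taken by name from the 55188 genes listed in each hippocampal RNA-seq table. All 31 were found once in each table, with a valid estimate in every library and a level high enough to be tested. The libraries came from mouse hippocampus, a brain region needed for contextual fear memory, and were taken before any fear conditioning. C57BL/6 mice of 2 groups were compared: animals labelled KO, a knockout of the calcium-sensitive tyrosine kinase Pyk2 (gene Ptk2b), and wild-type (WT) animals. The labels call every sample a transgenic mouse, WT included, and name no allele, age or sex. Each group held 2 numbered units, KO1 and KO2 against WT1 and WT2, with 2 technical replicates each, so 8 libraries in all. Each number was taken as 1 animal, n = 2 a group, although no label states that the numbers are separate mice.

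Astrocytes are the glial cells that take up transmitter and potassium from around synapses, make glutamine, and wrap vessels with endfeet that carry water channels. They are joined into networks by connexin gap junctions and feed neurons through glycolysis and glycogen. In the hippocampus they also release and exchange amino acids that act on NMDA receptors, and their stem-like relatives in the dentate gyrus make new neurons.

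Levels are in FPKM, which divides the fragments of a gene by its length and by the size of the library, so levels of different genes can be set side by side. In tissue RNA, fewer cells of a type and less RNA per cell cannot be told apart. The deposited confidence limits imply about 200 fragments for the member with the fewest in a library and 1688 for the median, a rough measure of depth. The upper limits lay between 1.92% and 14.1% above the value, with a median of 4.87%. Technical replicates of an animal differed by a median of 1.73%, and 5 of 124 pairs differed by more than the 95% range that the limits allow. Animals of 1 group differed more: the median gap was 8.99% between KO1 and KO2 and 5.88% between WT1 and WT2. Ptk2b itself averaged 273 ± 6.33 FPKM in animals labelled KO and 217 ± 21.0 FPKM in WT animals (SD, n = 2 each; exact two-sided permutation p = 0.333, the smallest that 2 against 2 animals allow). Its level was thus not lower but higher on average under the KO label. The log2 difference was 0.34 (SE 0.07, adjusted p = 0.158 in the limma fit described below). A value summed over the gene need not show a deletion of part of it, and the cause of the higher level was not tested. Every direction below is one between animals as labelled.

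The members spanned a 141-fold range of level, with secreted, metal-binding and metabolic proteins at the top. Cst3, which encodes the secreted protease inhibitor cystatin C and is also abundant in microglia, was highest at 1186 ± 95.5 FPKM in animals labelled KO and 1185 ± 49.3 FPKM in WT animals (SD, n = 2 each). Next came Sparcl1, an extracellular matrix protein that promotes synapse formation, Mt3, a brain metallothionein that binds zinc, Glul, the glutamine synthetase, and Aldoc, a glycolytic aldolase, all between 384.7 and 625 FPKM in single libraries. These 5 genes made up 66.9% of the summed FPKM of the members. At the other end stood Sox9, a transcription factor of astrocyte development, at 6.97 to 9.56 FPKM across the libraries. In all, 9 members averaged over 100 FPKM and 8 under 20 FPKM, and the median member stood at 41.8 FPKM, against 7.13 FPKM for the median of all 16667 genes tested. Of the 30 neighbouring pairs in this order, 15 had overlapping ranges over the 4 animals, so their order is not fixed. Each member was above 0 in each library.

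**Figure D1:**
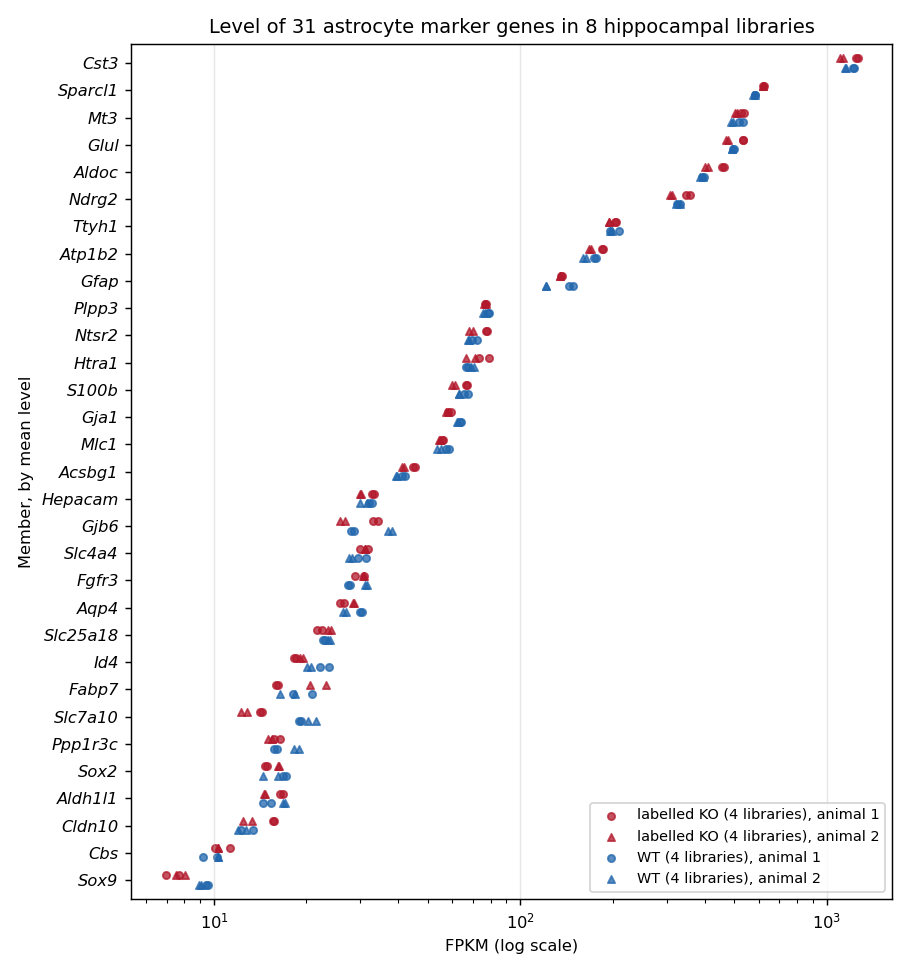
Level of the 31 members in FPKM on a log axis, with 1 point per library; red marks the animals labelled KO, blue the WT animals, and the symbol the animal number. Cst3 is highest and Sox9 lowest, and for most members the red and blue points overlap.

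The comparison of the groups asks whether the baseline hippocampus of the animals labelled KO differs in its astrocyte transcripts. It was tested with limma on log2(FPKM + 1) over all 16667 genes, and 0 of 31 members passed a Benjamini-Hochberg adjusted p of 0.05, where 0.0540% of all genes passed. At an unadjusted p under 0.05 there were 5 members, 1 higher and 4 lower in animals labelled KO. Over all genes that share was 15.5% (4.11% higher and 11.4% lower), near the 16.1% of the members. On the log2 scale 15 members were higher and 16 lower, but 23 were higher after median-of-ratios scaling. Over all genes 42.0% were higher with the deposited values and 51.02% after that scaling. The median log2 difference of the members was -0.00049, beside -0.02 over all genes. Their median absolute difference was 0.05, beside 0.08 over all genes, and 23 members lay within 0.1 of no difference. The animals labelled KO both lay beyond both WT animals for 8 members, 4 higher and 4 lower, which is 25.8% of them. The same held for 49.1% of all genes, 18.4% higher and 30.7% lower. A p above the threshold does not show that a level was the same. The standard errors of the members were 0.04 to 0.17 on the log2 scale.

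**Figure D2:**
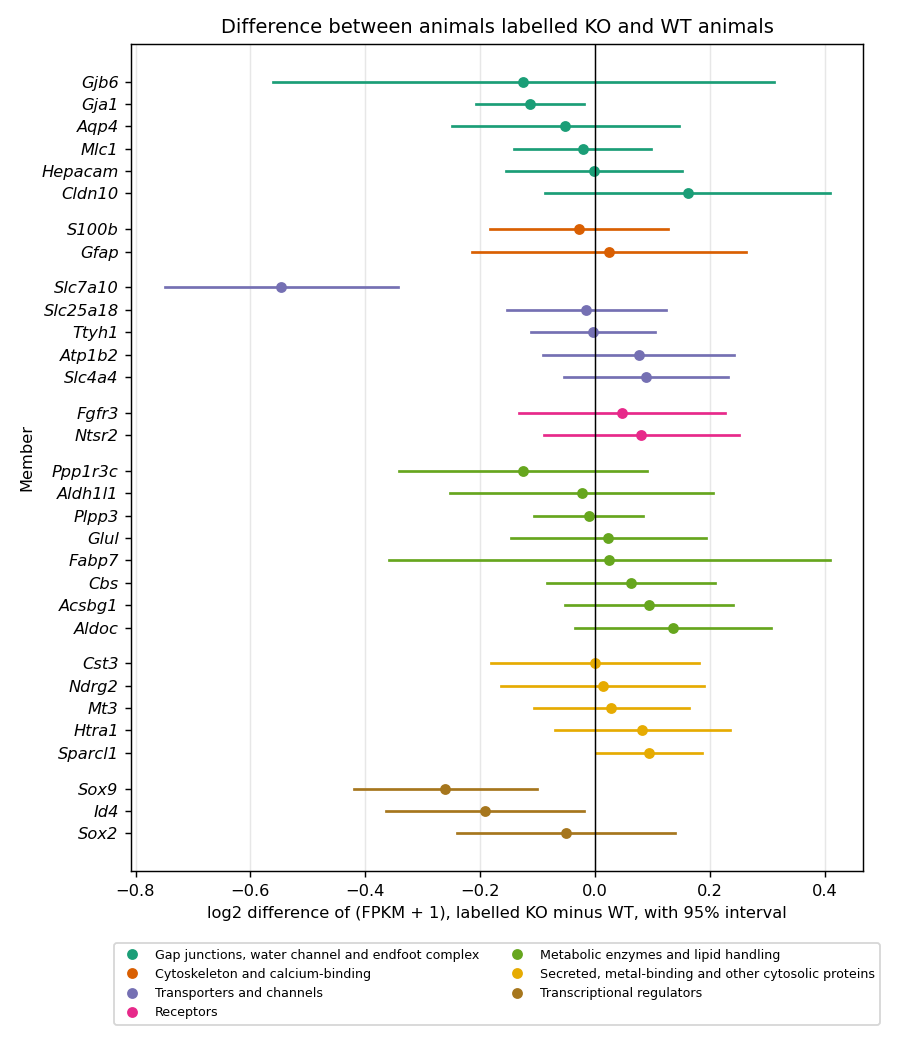
Difference in log2(FPKM + 1), animals labelled KO minus WT animals, with its 95% interval from limma, for the 31 members grouped by role. Slc7a10 stands apart at -0.55, and most intervals cross 0.

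The gene with the widest difference was Slc7a10, which encodes the amino acid exchanger Asc-1, a carrier of small neutral amino acids such as glycine and D-serine. It was at 14.1 and 14.4 FPKM in KO1 and at 12.9 and 12.3 FPKM in KO2, against 19.3 and 19.0 FPKM in WT1 and 21.5 and 20.3 FPKM in WT2. All 4 libraries labelled KO lay below all 4 WT libraries, and the mean was 0.669 times that in WT animals. The log2 difference was -0.55 (SE 0.08, 95% interval -0.75 to -0.34), with an adjusted p of 0.0996 in limma, so it did not pass. With 1 animal left out, the difference stayed between -0.63 and -0.46. The gene (ENSMUSG00000030495, chromosome 7, 35186385 to 35201114 in mm10) overlaps Lrp3 on the other strand by 1088 bases. Lrp3 averaged 19.6 FPKM in animals labelled KO and 19.8 FPKM in WT animals.

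The 3 transcriptional regulators were all lower on average in animals labelled KO under the deposited scaling. Sox9 (ENSMUSG00000000567, chromosome 11, 112782224 to 112787760) was at 6.97 and 7.66 FPKM in KO1 and 8.06 and 7.51 FPKM in KO2, against 9.56 and 9.43 FPKM in WT1 and 9.06 and 8.92 FPKM in WT2. The groups did not overlap, although the 2 libraries of KO1 differed by 9.53%, more than their deposited limits allow. Its log2 difference was -0.26 (SE 0.06, adjusted p = 0.179 in limma). Id4 (ENSMUSG00000021379, chromosome 13, 48261228 to 48266026), an inhibitor of bHLH transcription factors that is active in neural stem cells and astrocytes, gave 18.5, 18.2, 19.1 and 19.5 FPKM in the libraries labelled KO. The WT libraries gave 23.6, 22.1, 20.8 and 20.2 FPKM, again without overlap, and the log2 difference was -0.19 (SE 0.07, adjusted p = 0.286), or -0.12 without WT1. Sox2, the stem cell factor that astrocytes and ependyma retain, overlapped between groups at 15.5 ± 1.04 FPKM in animals labelled KO and 16.1 ± 1.17 FPKM in WT animals (SD, n = 2 each). The whole of Sox2 lies inside the long noncoding gene Sox2ot on the same strand, so reads of the pair may be mixed.

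Of the 6 endfoot and junction genes, 1 was higher and 5 lower on average in animals labelled KO with the deposited values. Among the 5, Hepacam and Mlc1 had ratios of means of 0.999 and 0.984, close to no difference. Counts of this kind move with the scaling: 15 members were higher with the deposited values and 23 after median-of-ratios scaling. The animals of the groups did not overlap for Gja1 and Cldn10. Gja1 (ENSMUSG00000050953, chromosome 10, 56377330 to 56402513), which encodes connexin 43, the main astrocyte gap junction protein, was at 58.2, 59.4, 58.2 and 57.4 FPKM in the libraries labelled KO and at 64.2, 63.4, 62.3 and 62.6 FPKM in WT libraries. The groups did not overlap, the ratio of means was 0.923, and the log2 difference was -0.11 (SE 0.04, adjusted p = 0.264 in limma). Gjb6, the gene of its partner connexin 30, had wide gaps inside each group. It was at 33.7 FPKM in KO1 and 26.4 FPKM in KO2, against 28.3 FPKM in WT1 and 37.5 FPKM in WT2, with the largest SE of the members (0.17). Aqp4, the water channel of endfeet, was at 26.6, 25.7, 28.7 and 28.5 FPKM in the libraries labelled KO and 30.0, 30.3, 26.4 and 27.0 FPKM in WT libraries. These ranges overlap (log2 difference -0.05, SE 0.08, adjusted p = 0.791), and the sign turned without WT1 and without KO1. Mlc1 and Hepacam, which form a membrane complex at the endfeet, averaged 55.1 and 31.5 FPKM in animals labelled KO and 56.0 and 31.6 FPKM in WT animals. Cldn10, a tight junction claudin, was higher in both animals labelled KO at 15.6 and 12.9 FPKM, against 12.8 and 12.4 FPKM in WT animals, but libraries of KO2 and WT1 overlapped (log2 difference 0.16, SE 0.10, adjusted p = 0.479). Its difference was 0.0290 without KO1 and 0.29 without KO2.

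Upstream regions are shown for Slc7a10, Gja1 and Id4, which were lower in every library labelled KO. Sox9 followed the same pattern and is named only. These 4 genes are 12.9% of the members, near the 13.0% of all genes with this pattern. Sequences are from RefSeq (GRCm38.p6, the mm10 assembly), 5′ to 3′ on the gene's plus strand, and cover the 250 bases before the RefSeq start. That start is the one given above for Slc7a10, and lies 30 bases before it for Gja1 and 112 bases before it for Id4. Capitals mark the half-site TTGGC of nuclear factor I, a factor family of astrocyte development, on either strand. The regions are chr7:35186135-35186384 for Slc7a10, chr10:56377050-56377299 for Gja1 and chr13:48260866-48261115 for Id4.
Slc7a10: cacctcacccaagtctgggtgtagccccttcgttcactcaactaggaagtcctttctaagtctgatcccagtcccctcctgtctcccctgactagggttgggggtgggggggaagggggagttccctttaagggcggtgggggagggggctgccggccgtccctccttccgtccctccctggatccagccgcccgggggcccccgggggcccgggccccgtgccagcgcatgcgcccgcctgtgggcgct
Gja1: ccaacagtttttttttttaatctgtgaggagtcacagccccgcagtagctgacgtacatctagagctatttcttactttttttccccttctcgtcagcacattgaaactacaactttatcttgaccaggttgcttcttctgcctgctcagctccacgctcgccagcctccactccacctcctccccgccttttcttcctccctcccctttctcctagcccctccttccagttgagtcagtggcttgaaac
Id4: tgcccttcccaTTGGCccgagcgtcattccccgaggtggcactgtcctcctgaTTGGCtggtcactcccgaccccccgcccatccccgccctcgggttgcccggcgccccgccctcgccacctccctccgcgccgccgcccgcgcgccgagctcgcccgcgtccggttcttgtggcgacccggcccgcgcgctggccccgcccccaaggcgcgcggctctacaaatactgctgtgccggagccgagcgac
Id4 held 2 half-sites and the other regions 0. Of the 27 members with an entry in the table, 15 held at least 1, and 41.6% of all 32526 mouse regions of this length did. Not all 27 regions lie at the start of the measured gene. The RefSeq start was 64366 bases from it for Aldh1l1, 3712 bases for Gfap and 774 bases for Slc4a4. The SOX motif AACAAT was in 0 of the 27 regions and in 9.35% of all regions, and the STAT motif TTCNNNGAA in 2 of the 27 and in 7.04% of all, both strands searched. These matches describe letters in a window and not binding.

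The defining cytoskeletal and calcium-binding genes did not separate the groups. Gfap, the intermediate filament gene that reactive astrocytes raise, was at 136, 137, 135 and 134 FPKM in the libraries labelled KO. In WT it was at 144 and 148 FPKM in WT1 and at 121 and 121 FPKM in WT2, on either side of the animals labelled KO. Its log2 difference was 0.02 (SE 0.09, adjusted p = 0.930 in limma), and it turned to -0.11 without WT2 and to -0.0128 after quantile normalization. The whole span of Gfap overlaps the long noncoding gene Gm26668 on the other strand, so reads of the pair may be mixed. S100b, a calcium-binding protein that oligodendrocytes also make, was at 66.8, 66.6, 59.8 and 61.3 FPKM in the libraries labelled KO and 65.7, 67.3, 63.3 and 63.2 FPKM in WT libraries. The log2 difference was -0.03 (SE 0.06, adjusted p = 0.862), with a sign that turned without WT1, without KO2 and after median-of-ratios scaling.

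Sparcl1 and Aldoc were the members whose 4 libraries labelled KO all lay above all 4 WT libraries. Sparcl1 (ENSMUSG00000029309, chromosome 5, 104079111 to 104113733) was at 625, 621, 619.8 and 619.9 FPKM in the libraries labelled KO, against 582, 585, 585 and 577 FPKM in WT libraries. The animals of each group lay close together, and the ratio of means was 1.07 (log2 difference 0.09, SE 0.04, adjusted p = 0.319 in limma). Aldoc (ENSMUSG00000017390, chromosome 11, 78322968 to 78327781) was at 455, 462, 401 and 409.9 FPKM in the libraries labelled KO, against 393, 399, 385 and 394 FPKM in WT libraries. KO2 stood just above WT1 and KO1 well above both, so the log2 difference of 0.13 had an SE of 0.07 (adjusted p = 0.404), and it was 0.0463 without KO1 and 0.22 without KO2. Complete separation of libraries in this direction held for 2 members and for 7.11% of all genes. In the other direction it held for 4 members (Slc7a10, Sox9, Gja1 and Id4) and for 13.0% of all genes.

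**Figure D3:**
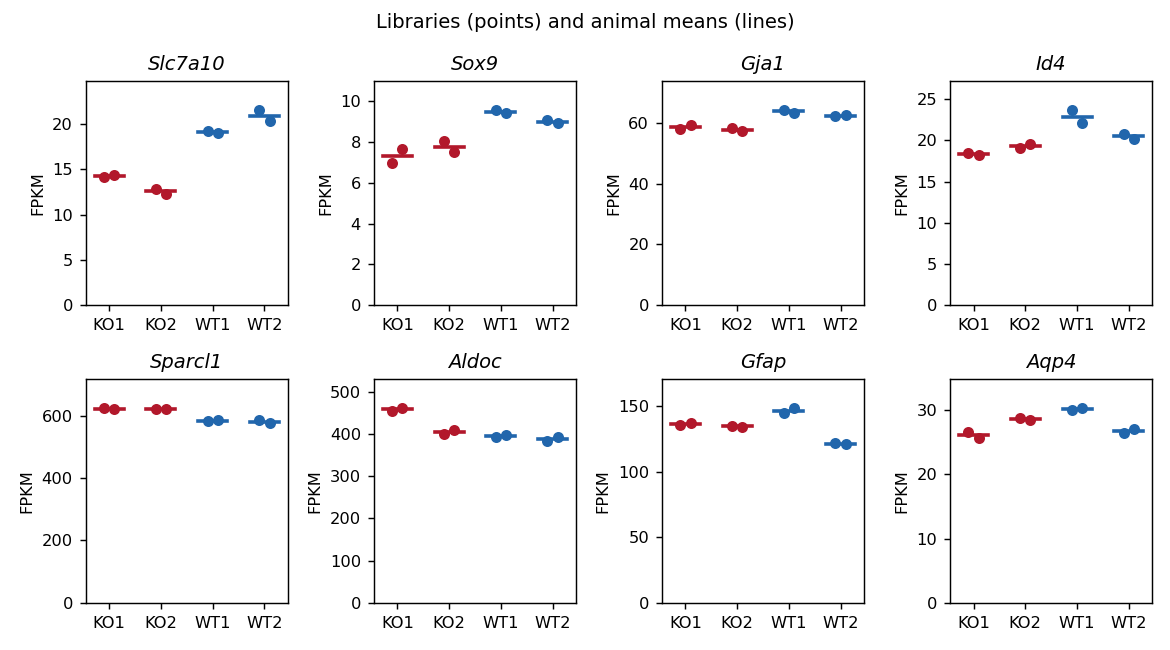
FPKM of 8 members in each library (points) with the mean of each animal (lines), animals labelled KO in red and WT animals in blue, on axes that start at 0. Slc7a10, Sox9, Gja1 and Id4 are lower and Sparcl1 and Aldoc higher in every library labelled KO, while Gfap and Aqp4 overlap.

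For enzymes and lipid-handling genes of astrocyte metabolism other than Aldoc, the animals of the groups overlapped. Glul was at 535, 533, 468 and 477 FPKM in the libraries labelled KO, around the 492 to 499.8 FPKM of WT libraries (log2 difference 0.02, SE 0.07, adjusted p = 0.902 in limma), and its sign turned without KO1. Aldh1l1, a folate enzyme used as a pan-astrocyte marker, was at 16.4, 16.8, 14.7 and 14.5 FPKM in the libraries labelled KO and 14.4, 15.3, 16.8 and 17.0 FPKM in WT libraries. Its log2 difference of -0.02 (SE 0.09, adjusted p = 0.926) took the other sign after median-of-ratios scaling, after quantile normalization, without WT2 and without KO2. Acsbg1, an acyl-CoA synthetase, averaged 43.3 ± 2.52 FPKM in animals labelled KO and 40.4 ± 1.54 FPKM in WT animals (SD, n = 2 each; log2 difference 0.09, SE 0.06, adjusted p = 0.482). Without KO1 the difference was 0.0359, and without KO2 0.15. The remaining members of this group were Cbs, which makes cystathionine, Ppp1r3c, a glycogen-targeting phosphatase subunit, Plpp3, a lipid phosphatase, and Fabp7, a fatty acid binding protein of radial glia. Their ratios of means were 0.909 for Ppp1r3c to 1.05 for Cbs. Fabp7 spread widely inside the group labelled KO, at 16.1 FPKM in KO1 and 21.9 FPKM in KO2, against 19.5 and 17.4 FPKM in WT animals.

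Among transporters, channels and receptors other than Slc7a10, all ratios of means lay between 0.989 and 1.06. Slc4a4, the sodium bicarbonate cotransporter, was higher in both animals labelled KO at 30.97 and 31.1 FPKM, against 30.5 and 27.8 FPKM in WT animals, with overlapping libraries. Slc25a18, a mitochondrial glutamate carrier, Atp1b2, a sodium pump subunit, and Ttyh1, a membrane protein of the tweety family, overlapped between groups. So did Fgfr3, a growth factor receptor, and Ntsr2, a neurotensin receptor, at 30.4 and 73.3 FPKM in animals labelled KO and 29.5 and 69.2 FPKM in WT animals. Htra1, a secreted serine protease, Mt3 and Ndrg2, a cytosolic protein of astrocytes, also overlapped, with ratios of 1.06, 1.02 and 1.01. The whole span of Htra1 overlaps Fgfr2 on the other strand, so reads of the pair may be mixed. Fgfr2 averaged 15.8 FPKM in animals labelled KO and 19.8 FPKM in WT animals.

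Most members differed in the same direction between animals of 1 group. KO1 was above KO2 for 23 of 31 members, and WT1 was above WT2 for 23 of 31. Both held for 17 members. The matching shares of all genes were not compared, so these counts do not show a trait of the members. Summed over the members, FPKM was 5042 in KO1 and 4661 in KO2, against 4834 in WT1 and 4663 in WT2. The difference between group means exceeded the larger gap between animals of 1 group for 5 members, or 16.1% of them, and for 36.6% of all genes.

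Beyond the members, 50 other astrocyte genes were examined, of which 18 were higher and 32 lower in animals labelled KO, with 0 past the adjusted threshold. At an unadjusted p under 0.05, 3 (6.00%) were higher and 7 (14.0%) lower, beside 4.11% and 11.4% of all genes, and the median log2 difference was -0.02. The 4 with the smallest p were lower in animals labelled KO. Slco1c1, a thyroid hormone transporter of astrocytes that brain endothelium and choroid plexus also make, averaged 12.3 FPKM in animals labelled KO and 24.2 FPKM in WT animals (log2 difference -0.92, SE 0.13, adjusted p = 0.0993 in limma). Vcam1, an adhesion molecule, averaged 6.67 and 10.5 FPKM, Slc39a12, a zinc transporter, 16.7 and 20.1 FPKM, and Clu, the secreted chaperone clusterin, 512 and 591 FPKM in animals labelled KO and in WT animals (adjusted p = 0.111, 0.117 and 0.125 in limma).

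Genes that reactive astrocytes raise gave no call either. Of 35 listed, 27 were high enough to be tested, 7 higher and 20 lower in animals labelled KO, with a median log2 difference of -0.13 and 0 past the adjusted threshold. At an unadjusted p under 0.05, 1 (3.70%) was higher and 6 (22.2%) lower, beside 4.11% and 11.4% of all genes. For 15 of the 27 (55.6%) KO1 and KO2 were each lower than WT1 and WT2, beside 30.7% of all genes. The 4 with the smallest p were the complement inhibitor gene Serping1 (2.92 FPKM in animals labelled KO and 4.57 FPKM in WT animals), the filament gene Vim (23.6 and 33.6 FPKM), the heat shock gene Hspb1 (4.14 and 6.99 FPKM) and the matrix gene Fbln5 (1.19 and 2.07 FPKM). Vessel wall or meningeal cells also make each of these.

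Markers of other cell types moved in the same animals, most of all those of choroid plexus and ependyma. All 22 of these markers were lower on average in animals labelled KO, as were 58.0% of all genes, with a median log2 difference of -2.17. The list was uneven, from -3.49 to -0.48. The ependymal genes Foxj1, Ccdc153 and Tmem212 differed less than the median, at -0.77, -0.57 and -0.52. So did other genes of the list, with Rarres2 at -0.51 and Slc5a5 at -0.48. The summed FPKM of the 22 was 334 in KO1 and 1313 in KO2, against 4396 in WT1 and 7685 in WT2, with none at 0. At an unadjusted p under 0.05 in limma, 19 of 22 (86.4%) were lower, beside 11.4% of all genes, and 0 passed the adjusted threshold. Ttr, the choroid plexus transthyretin gene, was at 180 and 934 FPKM in animals labelled KO and at 3366 and 6325 FPKM in WT animals. Meningeal markers were lower for 14 of 14, with a summed FPKM of 579 and 420.0 in animals labelled KO and 596 and 841 in WT animals. Blood markers were lower for 5 of 5, with sums of 149 and 158 FPKM in animals labelled KO and 287 and 317 FPKM in WT animals, and the globin genes Hba-a1 and Hba-a2 passed the adjusted threshold. The vessel list was lower for 13 of 15, with sums of 132 and 141 FPKM in animals labelled KO and 160.1 and 174 FPKM in WT animals. Markers of neurons, oligodendrocytes and microglia were higher for 9 of 12, 10 of 13 and 10 of 12, beside 42.0% of all genes. Their median log2 differences were 0.14, 0.07 and 0.08. At an unadjusted p under 0.05 in limma, 7 neuron markers (58.3%) were higher and 1 (8.33%) lower, beside 4.11% and 11.4% of all genes. The neuron list was not uniform. Its 3 lower markers were the GABA neuron genes Slc32a1, Gad2 and Gad1, with log2 differences of -0.26, -0.15 and -0.03. The part of these cell types in the values of Slc7a10, Sox9, Id4, Gja1 and the reactive genes was not tested.

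**Figure D4:**
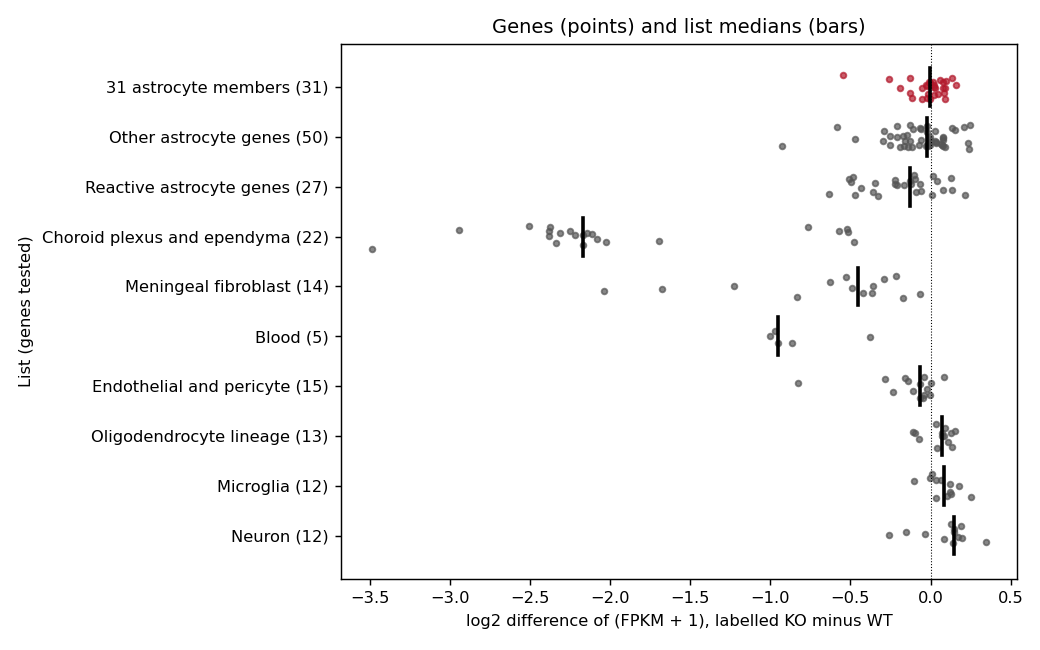
Difference in log2(FPKM + 1), animals labelled KO minus WT animals, for each gene tested (points) and the median of each list (bars); the number of genes tested is in brackets. The members centre on 0, with a median of -0.00049, while choroid plexus and ependyma markers spread from -3.49 to -0.48, with a median of -2.17.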

How the data were processed

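Hippocampal RNA-seq of 8 libraries was analysed, 4 per group, grouped by sample title. The authors deposited FPKM per gene, each with a confidence interval and an estimation status, per the file headers. RNA was extracted with Trizol, per the labels' protocols. The submitters' processing notes name HISAT, Bowtie (version 1) and mm10 without saying what each was used for. The quantifying program, any scaling between libraries and the use of strand are not stated, so overlapping genes (14 members) cannot be separated. No counts were recovered, so a count test was not used, and depth was implied from limits taken as 2 SD, which cover counting error only.

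Members and lists were chosen with earlier results of these data known. Rows repeating a gene were summed, 12 values whose status was not OK were left out, and technical replicates were averaged per animal. The fit covered 16667 genes that reached 0.5 FPKM in 2 animals, a minimum taken from an earlier look at these data. It used limma 3.58.1 (R 4.3.3) on log2(FPKM + 1) (trended variance, two-sided, Benjamini-Hochberg over all genes), and it gave every adjusted p-value printed. The pseudocount understates differences of low genes. The procedure was tested on simulated data with differences wider than that of any member, so its power at the sizes seen here was not tested. Among members, log2 differences are given for 8 core members (Gfap, Aqp4, Aldh1l1, Aldoc, Gja1, S100b, Sox9, Glul) and the 8 of smallest p, 13 genes together. Further genes were named by up to 4 smallest p for the other astrocyte and reactive lists. For the lists of other cell types up to 2 of the highest mean level were named. Hba-a1, Hba-a2, Foxj1, Ccdc153, Tmem212, Rarres2, Slc5a5, Slc32a1, Gad2 and Gad1 were named after their values were seen. Gene spans are identical to those of GENCODE M21 for 30 of 31 members (Slc4a4 differs). The limma p-values set each difference against the spread between these animals, moderated toward a trend fitted over all genes. Alternatives were other scalings, pseudocount, minimums, library choices, units, the animal number as a block, another variance model, each animal left out and another threshold. Figures were drawn with matplotlib 3.10.9.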

Additional observations from a re-analysis of the deposited data

Results flagged for a closer look

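Of 62 sets of 4 libraries (31 members in 2 groups), 3 held a library far from the other libraries of its group, where chance alone gives about 1 in 20 sets. Ttyh1 had 1 WT library at 209.5 FPKM, the second of WT1, with the other WT libraries at 197 to 199 FPKM. Fgfr3 had 1 library labelled KO at 28.9 FPKM, the first of KO1, below 30.7 to 30.98 FPKM in the others. Cbs had 1 WT library at 9.20 FPKM, the second of WT1, below 10.2 to 10.3 FPKM in the others. Technical pairs are not independent samples, and none of these genes passed the threshold.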

How the results depend on the processing

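Across 16 other settings, 191 of 208 log2 differences of the 13 named members kept their direction and their side of the threshold, 8 of the members in all settings as to direction. Changing the filter on low values, the variance trend or the replicate block left each log2 difference unchanged, so directions could not turn there. Treating all 8 libraries as units, which counts technical replicates as independent, called 5 members (Slc7a10 -0.55, Sox9 -0.26, Id4 -0.19, Gja1 -0.11 and Sparcl1 0.09), 2046 genes in all, with 2 members above without overlap. A threshold of 0.10 called 1 member, Slc7a10, and 175 genes. The adjusted p of Slc7a10 was 0.000814 to 0.461 over the settings. Median-of-ratios scaling put 23 members higher and gave 0.0055 for Aldh1l1 and 0.0018 for S100b. Quantile normalization gave -0.0128 for Gfap and 0.0081 for Aldh1l1, and 58.8% of all genes were higher after it, 51.02% after median-of-ratios scaling and 42.0% with the deposited values. Genes called were 9 with the deposited values, 14 with a pseudocount of 0.1, 0 with no filter on low values (3741 at an unadjusted p under 0.05), 1 with no variance trend, 184 with the replicate block, and 20 with KO1 from its second library only, which was added after seeing the data. The cause of these shifts was not tested.

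With 1 animal left out, 0 to 128 genes and 0 members were called; the lone animal is then assumed to vary like the other group. The members without overlap were 16 to 24 (6 to 16 higher, 8 to 13 lower), or 51.6% to 77.4% of them, as fewer animals separate more easily; over all genes the share was 71.9% to 78.8%. The median log2 difference of the members was -0.0189 to 0.0460. Differences ran from -0.11 to 0.16 for Gfap, -0.14 to 0.0317 for Aqp4, -0.11 to 0.0631 for Aldh1l1, -0.0982 to 0.0405 for S100b and -0.0648 to 0.11 for Glul. Over genes, the gap between animals 1 and 2 correlated at 0.107 between the groups; the numbers are not labelled as shared litters or days, so the replicate block was no basis of any result, and it called 0 members.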

Other observations

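Astrocyte genes outside the members that handle glutamate and lipids were named here after their values were seen. Slc1a2, the main glutamate transporter, averaged 240 FPKM in animals labelled KO and 207 FPKM in WT animals (log2 difference 0.21, SE 0.07, adjusted p = 0.262 in limma). Slc1a3, the other astrocyte glutamate transporter, averaged 142 and 135 FPKM in animals labelled KO and in WT animals. Apoe, the lipid carrier that microglia also make, averaged 1470 FPKM in animals labelled KO and 1676 FPKM in WT animals (log2 difference -0.19, SE 0.05, adjusted p = 0.196 in limma), and Clu was lower as well. Other lipid genes among the other astrocyte genes went both ways. For Lcat the log2 difference was 0.23 (SE 0.05, adjusted p = 0.167 in limma). It was 0.15 for Elovl2, 0.08 for Pla2g7 and -0.13 for Fads2. For Slc1a2, Slc1a3, Apoe and Clu both animals of 1 group lay beyond both of the other, as they did for 49.1% of all genes.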
